A study of Mus musculus with 2 samples.

Results

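Committed oligodendrocyte precursors are cells that have begun to leave the precursor state and have not yet built a full myelin programme. In the sorted cells of mouse cerebral cortex described here they were chosen cell by cell from their RNA counts, and 163 of 14265 cells qualified. Of these, 4 came from the N-PRα-KO library of 4196 cells and 159 from the WT library of 10069 cells. A cell qualified when Lhfpl3, Tnr, Cacng4, Olig1 and Sox10 made up at least 0.2% of its unique molecular identifiers (UMIs, 1 per captured RNA molecule). It also needed at least 3 UMIs of Bcas1, Enpp6 and Neu4 together, and more of these than of Pdgfra. Cells with 0.15% or more of Mobp, Mog, Mal and Opalin, or with 3 or more UMIs of the division genes Mki67, Top2a, Cenpf, Birc5, Ube2c and Hmmr, were left out. These 19 genes, with the mitochondrial share and the number of genes per cell, chose the members, so their levels are given as a description.

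The N-PRα-KO library came from Nestin-Cre;Pdgfra flox/flox mice, in which Cre recombinase is driven by the Nestin promoter, active in neural progenitors and their descendants, and Pdgfra carries sites for excision. The WT library came from C57BL/6J mice without either allele in the label. Both were made from cortex dissociated together with its meninges and enriched magnetically with an antibody to CD140a, the protein product of Pdgfra. Cells were captured on the BD Rhapsody system, and each genotype is 1 library, so no difference between genotypes has a replicate check and no test was possible. Age, sex and the number of mice pooled are not stated in the labels.

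Oligodendrocyte precursors divide and carry PDGF receptor alpha and the proteoglycan NG2, the product of Cspg4. When a precursor commits, it stops dividing, loses these receptors and passes through a short stage marked by BCAS1, ENPP6 and GPR17 before it wraps axons. GPR17, a G protein-coupled receptor of the cell surface, is known to hold back the last step, and MYRF, a transcription factor released from membranes, is known to switch on the myelin genes.

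The files held 8336 barcodes and 41982217 UMIs for N-PRα-KO, and 11438 barcodes and 43459947 UMIs for WT. Barcodes had to show 300 or more genes and no more than 25% of UMIs from mitochondria, which left 50.3% of N-PRα-KO and 88.0% of WT barcodes. Kept cells had a median of 5790.5 UMIs in N-PRα-KO and 3284 in WT. The libraries shared 105 cell indices, 38 of them among kept cells and 1 touching a committed precursor. The WT committed precursors held 981621 UMIs together, with a median of 5343 per cell and a range of 838 to 18884. The 3902 WT resting precursors were shallower, with a median of 3128 UMIs, and the 25 WT myelinating cells deeper, with a median of 16613. Resting precursors met the same identity and division limits but had at least 3 Pdgfra UMIs and no fewer of these than marker UMIs. Myelinating cells had Mobp, Mog, Mal and Opalin at 0.5% or more and an Olig1 or Sox10 UMI. Microglia had C1qa, C1qb and C1qc at 0.3% or more and no UMI of Lhfpl3, Tnr, Cacng4, Olig1 or Sox10. When each cell was thinned to 2000 UMIs, the median number of genes was 1256 in resting precursors, 1170.5 in committed precursors and 964.5 in myelinating cells.

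Levels are CPM, the UMIs of a gene summed over the cells of a group per 1000000 UMIs of that group, with exact 95% Poisson intervals. These cover counting error only and not differences between cells or between animals. The counting strand and gene length were not used, so levels are compared between cell groups and never between genes.

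Promoter sequences are shown for 3 genes that separate the stages: Enpp6, which marks commitment, Bmp4, which was highest at this stage though the selection did not use it, and Pdgfra, which precursors lose. Each is the 250 bases before the gene's start in RefSeq's GRCm38.p6 table, read 5′ to 3′ on the gene's strand; 10 of 16 genes looked up had an entry. Enpp6 lies at chr8:46986637-46986886 on the plus strand, Bmp4 at chr14:46390670-46390919 on the minus strand and Pdgfra at chr5:75152001-75152250 on the plus strand. Capitals mark a match to a motif searched on both strands.
Enpp6: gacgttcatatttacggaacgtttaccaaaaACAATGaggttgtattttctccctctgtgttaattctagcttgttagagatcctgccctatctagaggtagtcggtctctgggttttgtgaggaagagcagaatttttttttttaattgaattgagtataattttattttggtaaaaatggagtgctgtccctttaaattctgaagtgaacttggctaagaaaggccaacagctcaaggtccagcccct
Bmp4: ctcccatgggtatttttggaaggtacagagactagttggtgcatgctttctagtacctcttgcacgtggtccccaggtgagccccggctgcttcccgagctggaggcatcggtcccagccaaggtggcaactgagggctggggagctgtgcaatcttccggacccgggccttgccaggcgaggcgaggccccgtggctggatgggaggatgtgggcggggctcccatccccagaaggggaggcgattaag
Pdgfra: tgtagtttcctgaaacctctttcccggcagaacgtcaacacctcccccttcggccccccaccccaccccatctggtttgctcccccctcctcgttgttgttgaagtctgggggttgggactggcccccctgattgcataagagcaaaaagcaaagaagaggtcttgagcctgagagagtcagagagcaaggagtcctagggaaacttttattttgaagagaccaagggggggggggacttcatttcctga
The motifs were the SOX-type cores ACAAAG and ACAATG and the E-boxes CAGCTG and CATATG, which basic helix-loop-helix factors such as OLIG2 can read; ACAAAG is also a core that TCF/LEF factors can read. Among 32851 promoters of the same length, ACAAAG was present in 16.5%, ACAATG in 10.7%, CAGCTG in 13.0% and CATATG in 3.46%. The Enpp6 window held 1 match, ACAATG, 219 bases before the start. The Bmp4 and Pdgfra windows held none of the 4 motifs, which says only that these letters are not in those windows.

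The cells carried the markers of the stage. Bcas1, a protein of newly forming oligodendrocytes, reached 2890 CPM (2785 to 2998) in WT committed precursors, against 263 (254 to 272) in WT resting precursors. Enpp6, a choline phosphodiesterase, stood at 2633 CPM (2533 to 2737) in committed and 4.14 (3.12 to 5.39) in resting precursors. Neu4, a sialidase, stood at 350 CPM (314 to 390) in committed and 128 (122 to 135) in resting precursors. These 3 genes were selected on, and they are high by construction. The limits also bear on resting cells, where Neu4 was present in 26.4% of cells and Enpp6 in 1.33%.

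Gpr17 was not used to choose cells and serves as the check of the label. It was detected in 151 of 159 WT committed precursors (94.97%), in 77.9% of resting precursors and in 5.88% of microglia, which should lack it. Median depths were 5343, 3128 and 2533 UMIs. Microglia with a UMI of the identity genes had been left out, so shares in microglia can understate the background of stray lineage RNA. After thinning to 2000 UMIs, for which 9 committed precursors, 553 resting precursors and 88 microglia were too shallow, the shares were 80.7%, 68.0% and 5.96%. The summed Gpr17 level was 1284 CPM (1214 to 1356) in committed and 705 (691 to 720) in resting precursors, a log2 ratio of 0.86 (0.78 to 0.95). Gpr17 was therefore higher in committed precursors than in resting ones by more than counting error, by less than 2-fold, and it was also common in resting precursors. In myelinating cells it stood at 201 CPM (159 to 250).

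Genes of the late stage were low, as the selection required of Mobp, Mog, Mal and Opalin. Opalin had no UMI in 159 WT committed precursors and Mal had a UMI in 1 cell, while Mobp and Mog stood at 87.6 and 50.9 CPM, against 7643 and 1644 CPM in myelinating cells. Pdgfra was at 392 CPM (354 to 433) in committed and 5153 (5115 to 5192) in resting precursors. It was still detected in 71.7% of committed precursors, or 48.0% after thinning, against 20.7% of microglia, or 15.7% after thinning. The other 45 of the 159 cells (28.3%) had no Pdgfra UMI. Sox10, a transcription factor kept through the whole lineage, was one of the genes used for selection and stood at 821 CPM in resting precursors, 927 in committed precursors and 607 in myelinating cells.

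Cells near the limits of the selection are described by their Gpr17 level. Of the members, 10 had exactly 3 marker UMIs, with Gpr17 at 1274 CPM. Outside were 4 cells with 2 marker UMIs and fewer of Pdgfra, with Gpr17 at 574 CPM. Cells with 2 marker UMIs and as many or more of Pdgfra were not counted here. Members with 1 marker UMI more than Pdgfra numbered 17 and had 806 CPM of Gpr17 and 1016 CPM of Pdgfra. Cells with 3 or more marker UMIs and equally many of Pdgfra numbered 22, fell outside, and had 607 CPM of Gpr17 and 1385 CPM of Pdgfra. On the mature side, 10 cells otherwise eligible were outside with a share of 0.15 to 0.5%, and 12 cells otherwise eligible were outside for their division genes. The 10 cells had 266 CPM of Gpr17 and the 12 cells had 1752 CPM.

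**Figure D1:**
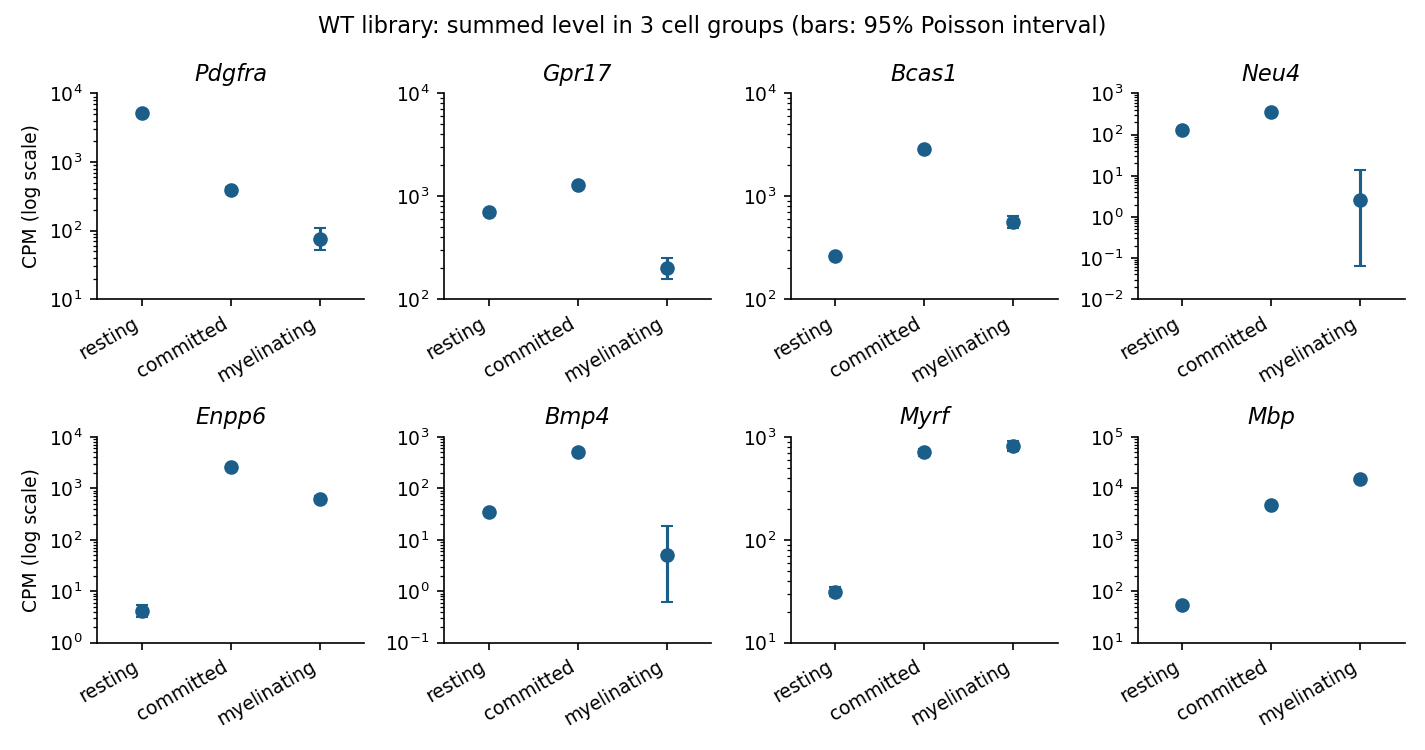
Level in CPM, on a log axis, of Pdgfra, Gpr17, Bcas1, Neu4, Enpp6, Bmp4, Myrf and Mbp in resting precursors, committed precursors and myelinating cells of the WT library. Points are summed levels and bars are 95% Poisson intervals; Enpp6 stood at 4.14, 2633 and 617 CPM and Mbp at 54.4, 4700 and 15178 CPM in the 3 stages.

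Against resting precursors, WT committed precursors had more RNA of myelin proteins, of the cytoskeleton and of the genes that mark newly forming oligodendrocytes, and less RNA of precursor receptors and ion channels. Of 6686 genes with a mean level of at least 20 CPM, 1364 (20.4%) differed by 2-fold or more. These were 427 higher genes (6.39%) and 937 lower genes (14%). The median over all genes was -0.15 on the log2 scale, and with median-of-ratios scaling it was 0.04, which gave 517 higher and 710 lower genes, or 42.1% higher in place of 31.3%.

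The genes furthest above resting precursors had varied roles. Epcam, a cell adhesion molecule better known from epithelia, stood at 127 CPM (106 to 152) in committed and 0.452 (0.166 to 0.983) in resting precursors, a log2 ratio of 8.14 (6.98 to 9.61). Epcam was detected in 31.4% of committed precursors, 0.154% of resting precursors and 0.310% of microglia. The tight junction gene Cldn11 had 2994 CPM in committed and 21.4 CPM in resting precursors (log2 ratio 7.13), and Mag, the myelin-associated glycoprotein, 897 against 6.85 CPM (7.03). Mbp, myelin basic protein, had 4700 against 54.4 CPM (6.43), and the matrix protease Adamts4 308 against 4.67 CPM (6.04). Further genes among the 15 highest were 9630013A20Rik, Cbln2, Parvb, Frmd4a, Ddc, Chn2, Cnksr3, Gng4 and Tmem88b, with log2 ratios of 4.80 to 5.98. The long RNA 9630013A20Rik is annotated as antisense, and since the counting strand is not stated its reads and those of a partner gene cannot be told apart. Ddc, the enzyme that makes dopamine and serotonin from their amino acid precursors in neurons, had 218 CPM (190 to 249) in committed and 5.57 (4.37 to 6.99) in resting precursors. Ddc, Epcam and Cbln2, a secreted synapse organiser, are not myelin components, and all 3 stood far above their level in resting precursors.

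The genes furthest below resting precursors also had varied roles. Trnp1 was lowest, at 6.11 CPM (2.24 to 13.3) in committed and 138 (132 to 145) in resting precursors (log2 ratio -4.50). Cspg4, which encodes NG2, stood at 20.4 against 253 CPM (-3.63), and Spry1, a feedback inhibitor of receptor tyrosine kinases, at 29.5 against 306 CPM (-3.37). The endothelin receptor Ednrb had 436 CPM (396 to 479) in committed and 3424 (3393 to 3456) in resting precursors (-2.97). Chl1, an adhesion molecule, had 39.7 against 460 CPM (-3.53). The cysteine dioxygenase Cdo1 had 55.0 against 493 CPM (-3.16). The remaining 9 of the 15 lowest were Fstl5, Kcnk2, Mmp15, Masp1, Gpc5, Plxnc1, Zfp36l2, Hlf and Inka2, with log2 ratios of -3.74 to -2.96.

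Lists of genes with a known role were then counted against the shares above, 6.39% higher and 14% lower. They were drawn up with results of these cells known, so their counts describe the cells and are not independent evidence of a direction. Of 31 genes known from committed precursors, 27 were measured at 20 CPM or more; 24 were at least 2-fold higher, none was lower, and the median log2 ratio was 2.68. Bmp4, a secreted signal of the BMP family, had 512 CPM (469 to 559) in committed and 35.1 (32.0 to 38.4) in resting precursors (log2 ratio 3.87, interval 3.68 to 4.05). Fyn, a Src-family kinase of oligodendrocyte process outgrowth, had 4127 against 643 CPM (2.68). The deacetylase Sirt2 had 1243 against 130 CPM (3.26), and the calcium channel of the endoplasmic reticulum Itpr2 486 against 165 CPM (1.56).

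Of 30 genes of precursor identity, all measured, 20 were at least 2-fold lower and 1 was higher, with a median of -1.65. The higher one was Col9a1, a collagen chain, at 50.9 CPM in committed and 3.16 in resting precursors. The receptor phosphatase Ptprz1 had 2167 against 8266 CPM (log2 ratio -1.93) and was still detected in 98.1% of committed precursors. Vcan, the proteoglycan versican, was within counting error at 1182 against 1227 CPM (-0.05, interval -0.14 to 0.03). The list was thus lower in level in most members, while Ptprz1 remained in nearly every cell and Vcan did not differ beyond counting error.

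Myelin genes were in part on. Of 35, 19 were measured apart from the genes used for selection; 13 were at least 2-fold higher, 1 was lower and the median was 2.54. Nfasc, which encodes the adhesion molecule neurofascin, had 3756 against 143 CPM (log2 ratio 4.71). Cnp, a phosphodiesterase of the myelin cytoplasm, had 1341 against 90.9 CPM (3.88). The galactolipid enzyme Ugt8a had 1734 against 346 CPM (2.32). The late genes Car2, at 34.6 against 38.4 CPM (-0.15, interval -0.69 to 0.35), and Gsn, at 22.4 against 33.0 CPM (-0.56, -1.25 to 0.06), were within counting error of resting precursors. The lower gene was Pmp22, a protein better known from peripheral myelin, at 15.3 against 73.6 CPM.

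Transcription factors went both ways. Of 36, 32 were measured apart from those used; 7 were at least 2-fold higher and 12 were lower, with a median of -0.40. The higher ones were led by St18 at 96.8 against 0.903 CPM (log2 ratio 6.74), Myrf at 707 (655 to 762) against 31.3 CPM (28.4 to 34.5; 4.50) and Tcf7l2, an effector of Wnt signalling, at 837 against 80.9 CPM (3.37). Zfp365, Zeb2, Klf9 and Foxn3 were the other higher factors, with log2 ratios of 1.21 to 2.54. Among the lower ones, Sox9 had 59.1 against 364 CPM (-2.62), Prrx1 19.4 against 147 CPM (-2.93) and Creb5 7.13 against 91.6 CPM (-3.68). Nkx2-2 was higher by less than 2-fold, at 134 against 73.9 CPM (0.86, interval 0.59 to 1.13), and Olig2 was lower by less than 2-fold, at 656 against 944 CPM (-0.52).

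Notch, Wnt and BMP genes differed gene by gene. Of 9 measured Notch genes none was 2-fold higher, 4 were lower and 5 stayed within 2-fold. The lower ones included the Notch target Hes5 at 8.15 against 71.7 CPM (log2 ratio -3.14) and the ligand Dll1 at 21.4 against 67.6 CPM (-1.66). In the Wnt and BMP list, 2 of 12 measured genes were higher, 4 were lower and 6 stayed within 2-fold, with a median of -0.20 beside -0.15 for all genes. The higher ones were Bmp4 and Smad7, an intracellular brake on BMP and TGF-beta signalling, at 130 against 19.95 CPM (2.71). The other ligand Bmp7 was lower at 35.7 against 142 CPM (-1.99), so the BMP ligands went in opposite directions. Axin2, a common readout of Wnt signalling, was at 21.4 against 20.8 CPM (0.04, interval -0.67 to 0.68), while Tcf7l2 was higher.

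Receptors changed in kind. Of 19 measured receptors for growth factors, lipids and hormones not used for selection, 4 were at least 2-fold higher and 9 were lower. The lysophosphatidic acid receptor Lpar1 had 248 against 9.79 CPM (log2 ratio 4.66), Fgfr2 106 against 10.3 CPM (3.36), Ephb1 380 against 68.4 CPM (2.47) and the thyroid hormone receptor Thra 694 against 301 CPM (1.21). Fgfr1 was lower at 24.4 against 86.2 CPM (-1.82), so 2 receptors of the same family differed in opposite directions. The adenosine receptor Adora1 had 5.09 against 83.9 CPM (-4.04), and the sphingosine receptor S1pr1 56.0 against 217 CPM (-1.95).

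Of 30 measured glutamate and GABA receptors and ion channels, 18 were at least 2-fold lower and none was higher, with a median of -1.29. The potassium channel Kcnd2 had 104 against 626 CPM (log2 ratio -2.59), the metabotropic receptor Grm5 41.8 against 217 CPM (-2.38) and the AMPA subunit Gria1 6.11 against 63.7 CPM (-3.38). Other AMPA subunits were closer to resting precursors: Gria2 had 1056 against 1786 CPM (-0.76) and Gria4 208 against 229 CPM (-0.14, interval -0.35 to 0.07).

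Genes for process outgrowth were more often higher. Of 37 measured cytoskeletal genes, 14 were at least 2-fold higher and 3 were lower, with a median of 0.67. The microtubule proteins Map1b and Tubb4a had 2192 against 80.5 CPM (log2 ratio 4.77) and 2732 against 203 CPM (3.75). The small GTPase Rnd2 had 1353 against 166 CPM (3.03). The matrix, adhesion and guidance list did not share this direction, with 4 of 31 genes higher and 11 lower. Its summed level was 15445 CPM in committed and 24642 CPM in resting precursors. Among the 4 higher genes, the semaphorin Sema4d had 491 against 22.6 CPM (4.44) and the plexin Plxnb3 237 against 14.4 CPM (4.04).

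Few lipid genes differed by 2-fold, beside 6.39% higher and 14% lower of all genes. Of 28 measured genes of sterol and fatty acid synthesis, 3 were higher and 2 lower, with a median of 0.28; among the higher ones, Elovl7 stood at 338 against 28.3 CPM (log2 ratio 3.58) and Acsl3 at 484 against 106 CPM (2.18). Of 18 sphingolipid genes, 3 were higher and 4 lower; the higher ones were Fa2h, Ugt8a and Gltp, which make or carry the galactolipids of myelin. Of 18 cell cycle inhibitors and cyclins, 1 was higher, Cdkn1c, at 63.2 against 26.4 CPM (1.26), and 5 were lower, with Ccnd1, cyclin D1, at 103 against 472 CPM (-2.20). Of 7 replication genes above 20 CPM none was higher and 2 were lower. Cells with 3 or more UMIs of the division genes had been left out of both groups, at unlike depths. That limit bears on the replication and cell cycle counts. Of 12 iron and antioxidant genes none was higher and 1 lower. Of 15 early response genes, which can also mark dissociation, 2 were higher and 4 lower. Counts in such short lists are not read as a difference from all genes.

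**Figure D2:**
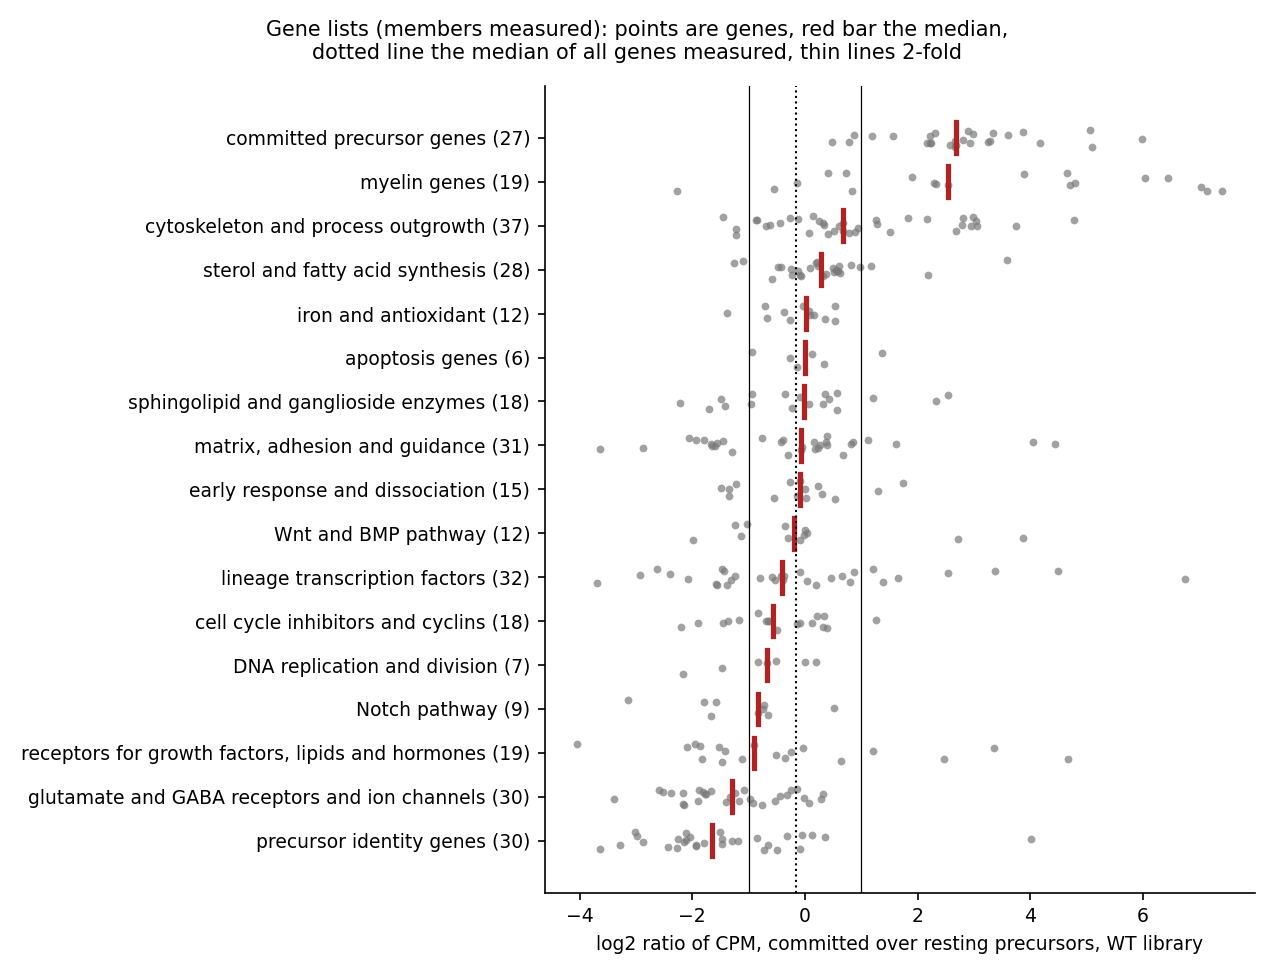
Log2 ratio of WT committed over WT resting precursors for the measured members of each gene list, with the list's median as a red bar, the median of all genes as a dotted line and the 2-fold limits as thin lines. The median was 2.68 for committed precursor genes, -1.65 for precursor identity genes and -1.29 for glutamate and GABA receptors and ion channels.

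Among markers of other cell types, the summed levels of astrocyte, neuronal lineage and microglia markers were lower in committed than in resting precursors, and those of fibroblast, endothelial and mural markers were higher. Their part in the results was not tested. The 12 astrocyte markers summed to 1395 CPM in committed and 2588 in resting precursors, and 1 of the 12 was at 0 in committed precursors. The 15 neuronal lineage markers summed to 302 CPM, against 832, with 2 at 0. The 12 microglia and macrophage markers summed to 105 CPM, against 210, with 1 at 0. The 10 fibroblast markers summed to 506 CPM, against 332, with a median cell at 111 CPM and a highest cell at 28014 CPM in committed precursors. The median log2 ratio of the 5 measured fibroblast markers was 0.56, and it was -0.62 without the cells that Scrublet marked as doublets, -0.48 with an identity minimum of 0.4% and -0.08 at a mitochondrial limit of 10%. Endothelial markers summed to 258 against 169 CPM, and mural markers to 108 against 85.7 CPM with 4 of 10 at 0. The median of the mural markers was 0.46, and -0.14 without the Scrublet calls. Scrublet marked 3 of the 159 WT committed precursors and none of the 4 N-PRα-KO ones as doublets; it marked 174 of 10069 WT cells (1.73%) and 10 of 4196 N-PRα-KO cells (0.238%), too few in N-PRα-KO to count as working there.

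Set against both neighbours, a set of genes was highest at this stage. Of 6310 genes with a mean of at least 20 CPM over the 3 WT groups, 145 (2.3%) were at least 2-fold above both resting precursors and myelinating cells. These include Bcas1, Enpp6 and Neu4, which the selection made high in committed precursors. Another 73 (1.16%) were 2-fold below both. Inpp4b is among the 73 only because its counts in committed and myelinating cells, both under 3, were set to 3. After thinning to 2000 UMIs per cell, where 3 counts in myelinating cells equal 68.2 CPM, 71 genes were at least 2-fold above both. A further 147 (2.33%) were higher by 2-fold at both steps and 451 (7.15%) were lower at both steps. The 147 include Mobp, Mog and Opalin, which the selection used. Opalin, Aspa, Cdc42ep2 and Neurog2 had no UMI in committed precursors. They are among the 147 only because a count under 3 was set to 3. The same holds for Ndrg1, with 1 UMI in committed precursors, at 1.02 against 0.753 CPM in resting precursors. Epcam and Cbln2 led the genes that peaked, with no UMI in the 25 myelinating cells, where 3 counts equal 7.62 CPM. Bmp4 stood at 35.1 CPM in resting precursors, 512 in committed precursors and 5.08 (0.615 to 18.4) in myelinating cells. Epb41l2, a membrane skeleton protein, stood at 63.6, 1145 and 83.8 CPM in the same order, and the sulfotransferase Ust at 48.9, 493 and 30.5 CPM. Epb41l2 was also present in microglia, at 663 CPM.

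Further genes of this kind had other roles. Chn2, a Rac GTPase-activating protein, stood at 24.8 CPM in resting precursors, 845 in committed precursors and 107 in myelinating cells, and the scaffold gene Frmd4a at 20.8, 938 and 112 CPM. Tmem108 stood at 46.5, 374 and 25.4 CPM, and Pdcd4, a translation inhibitor, at 97.0, 815 and 27.9 CPM. Brca1, known for DNA repair, stood at 5.57, 70.3 and 7.62 CPM, although cells with division genes had been left out. The other genes among the 15 with the largest smaller ratio were Lrrc42, Rimkla, Nhsl2, Col9a1 and Gpr146. Fyn, at 361 CPM in myelinating cells, and Tcf7l2, at 152 CPM there, also peaked at the committed stage.

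**Figure D3:**
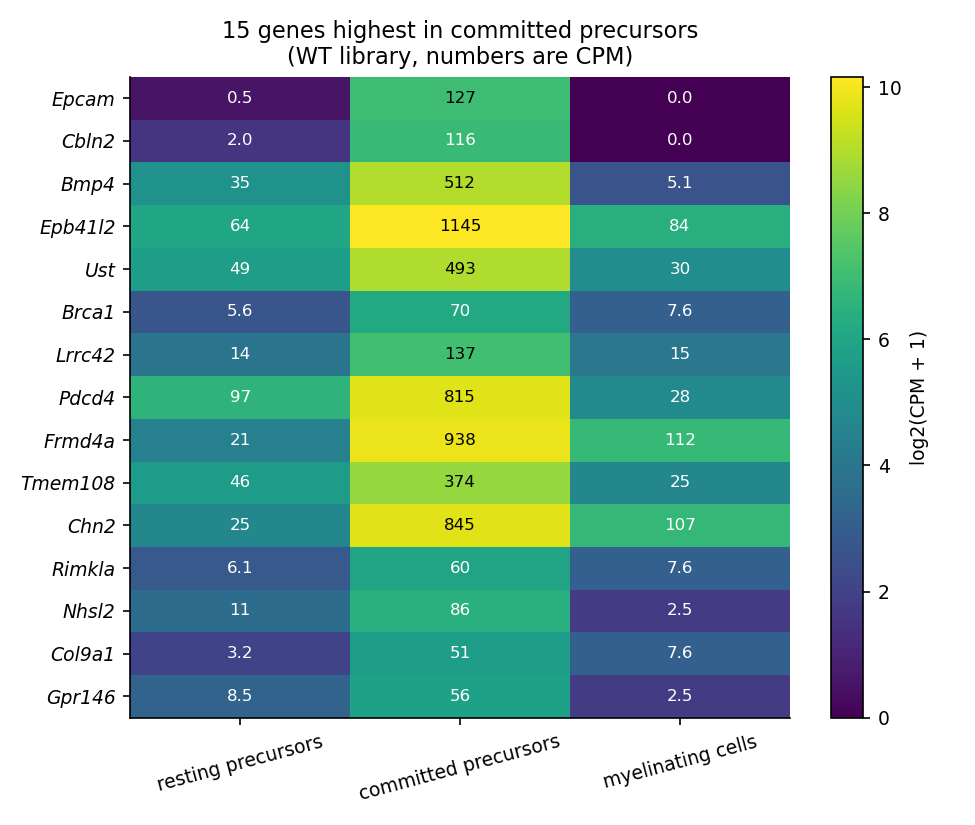
Heat map of the level of the 15 genes that most exceeded both neighbouring stages, in resting precursors, committed precursors and myelinating cells of the WT library, with colour as log2 of CPM + 1 and the CPM printed. Bmp4 stood at 35.1, 512 and 5.08 CPM.

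Compared with the 25 myelinating cells, committed precursors had less RNA of myelin genes and more of precursor genes. Of 5800 genes measured, 2229 (38.4%) differed by 2-fold, 1638 higher (28.2%) and 591 lower (10.2%) in committed precursors, with a median of 0.44. This split rests on scaling: with median-of-ratios scaling the median was -0.01, with 982 higher and 1033 lower, 48.7% higher in place of 73.5%. After thinning to 2000 UMIs per cell it was 27.1% higher, where 3 counts in the thinned myelinating cells equal 68.2 CPM. Of 27 measured myelin genes, 25 were at least 2-fold lower in committed precursors, with a median of -2.55; Mag had 897 against 8687 CPM and Cldn11 2994 against 14103 CPM. Myrf differed by less than 2-fold, at 707 against 818 CPM. Of 31 sterol and fatty acid genes 21 were lower and none was higher. Of 26 precursor identity genes 23 were higher and none was lower.

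The 159 WT committed precursors were not uniform. They were ordered by the share of Mbp and Cnp in their UMIs, which ran from 0 to 2.38%, and cut into 3 bins of 53 cells. The median share was 0.0189% in the low bin, 0.215% in the middle bin and 1.08% in the high bin, and median UMIs were 4155, 5626 and 8262. Mbp stood at 54.4 CPM in resting precursors, 67.3 (37.6 to 111) in the low bin, 2374 in the middle bin, 9153 in the high bin and 15178 in myelinating cells. Mbp and Cnp ordered the cells, so their trend is fixed. Cldn11, which did not order them, stood at 21.4, 53.8, 1373, 5940 and 14103 CPM over the same stages, and Mag at 6.85, 8.97, 471, 1735 and 8687 CPM. The bins share 1 library, and values across them are a description.

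The markers differed in the bin where they were highest. Gpr17 stood at 705 CPM in resting precursors, 1404 (1252 to 1568) in the low bin, 1885 (1743 to 2036) in the middle bin, 715 (635 to 801) in the high bin and 201 in myelinating cells. Bmp4 stood at 35.1, 386 (308 to 476), 859 (764 to 962), 291 (241 to 348) and 5.08 CPM over the same 5 stages. Gpr17 and Bmp4 thus were highest in the middle bin, by more than counting error, and already above resting precursors in the low bin. The intervals leave out differences between the cells of a bin. For each gene, the top 15 of 159 cells held 29.6% of the Gpr17 and 34.2% of the Bmp4 UMIs. Fibroblast, mural and endothelial markers were also highest in the middle bin. Over the low, middle and high bins they summed to 130, 1087 and 133 CPM, to 49.3, 173 and 46.0 CPM and to 80.7, 286 and 189 CPM. Single committed precursors reached 28014 CPM of fibroblast and 13245 CPM of endothelial markers, against medians of 111 and 0 CPM. Astrocyte and neuronal lineage markers were instead highest in the low bin, the latter at 619, 220 and 87.2 CPM. The part of all these markers in the levels above was not tested. Enpp6 was highest in the high bin, at 103 CPM (65.4 to 155) in the low bin, 2530 (2365 to 2703) in the middle bin and 4087 (3894 to 4287) in the high bin, and 7, 47 and 53 cells had it. Neu4 was more even, at 395, 419 and 269 CPM, in 42, 42 and 34 cells. The selection by Bcas1, Enpp6 and Neu4 together therefore admitted low-bin cells mainly through Bcas1 and Neu4.

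The same split showed in single cells. Enpp6 and Neu4 were both detected in 78 of 159 cells (49.1%), Enpp6 without Neu4 in 29 (18.2%), Neu4 without Enpp6 in 40 (25.2%) and neither in 12 (7.55%). All of Bcas1, Enpp6, Neu4 and Gpr17 were detected in 75 cells (47.2%). The median cell had 13 Bcas1, 10 Enpp6, 1 Neu4 and 5 Gpr17 UMIs, and the highest counts were 61, 71, 12 and 34. At a median of 1 UMI, a cell without Neu4 may have missed it at this depth.

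Between high and low bin, 587 of 1935 genes with a mean of at least 100 CPM (30.3%) differed by 2-fold, 293 higher (15.1%) and 294 lower (15.2%). Among the 8 highest were Mag, Cldn11, Gjc3, Frmd4a, Rnf122, Adamts4 and Elovl7. Lpar1, the lysophosphatidic acid receptor, stood at 13.5 CPM (2.77 to 39.3) in the low bin, 57.8 in the middle bin and 533 (465 to 608) in the high bin. Among the 8 lowest were Grin3a, Dll3, Slc38a1, Gap43, Dpysl3, Sdc3 and Tmem100. The Notch ligand Dll3 stood at 153 CPM (146 to 160) in resting precursors, 287 (221 to 367) in the low bin, 54.9 in the middle bin and 2.42 (0.0613 to 13.5) in the high bin. Nkx2-2 stood at 73.9, 224, 168 and 58.1 CPM over the same 4 stages. Dll3 thus had its highest level in the low bin. Nkx2-2 was also highest in the low bin, but not above the middle bin by more than counting error.

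Myrf and Tcf7l2 were higher in each later bin, and Fyn was highest in the middle bin. Myrf stood at 31.3 CPM in resting precursors, 184 in the low bin, 587 in the middle bin, 1090.2 in the high bin and 818 in myelinating cells. Tcf7l2 stood at 80.9, 242, 619, 1342 and 152 CPM over the same stages, and Fyn at 643, 1301, 5418, 4572 and 361 CPM. Myrf, Tcf7l2 and Fyn were at least 2-fold above resting precursors in the low bin. Epcam was at 8.97 CPM in the low bin, 278 in the middle bin and 65.4 in the high bin. Pdgfra was lower at each of the 5 stages in turn, at 5153, 771, 411, 172 and 76.2 CPM. The selection used Pdgfra, so its step from resting precursors to the bins is fixed by construction. Ptprz1, which the selection did not use, was also lower at each stage, at 8266, 5032, 2102, 674 and 165 CPM.

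Sterol genes differed between the bins, although few had differed by 2-fold between all committed and resting precursors. Of 27 measured, 16 were at least 2-fold higher in the high than in the low bin and 1 was lower, with a median log2 ratio of 1.28, beside 12% higher and 23.5% lower of all 6251 genes with a mean of at least 20 CPM over the bins. Their summed level was 3520 CPM in the low bin, 5042 in the middle bin and 9841 in the high bin. Of 29 committed precursor genes 23 were higher, and of 29 precursor identity genes 22 were lower. Cyclin D1, Ccnd1, stood at 472 CPM in resting precursors, 336 in the low bin, 49.2 in the middle bin and 21.8 in the high bin. The astrocyte markers summed to 2583 CPM in the low bin, 1700.1 in the middle bin and 460.3 in the high bin, with 8 of 8 measured lower in the high than in the low bin, and their part in these differences was not tested.

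Of the 422 genes higher in committed than in resting precursors and not used for selection, 90 (21.3%) were past 2-fold over resting precursors in the low bin, 333 (78.9%) in the middle and 410 (97.2%) in the high bin. Of the 933 lower genes, 277 (29.7%), 823 (88.2%) and 908 (97.3%) were past 2-fold in the same bins. The bins are part of the group that named these genes, so the shares say only which cells carried the difference. A count of 3 equals 13.5, 8.67 and 7.27 CPM in the low, middle and high bins, and changes of genes under those levels were not detectable.

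**Figure D4:**
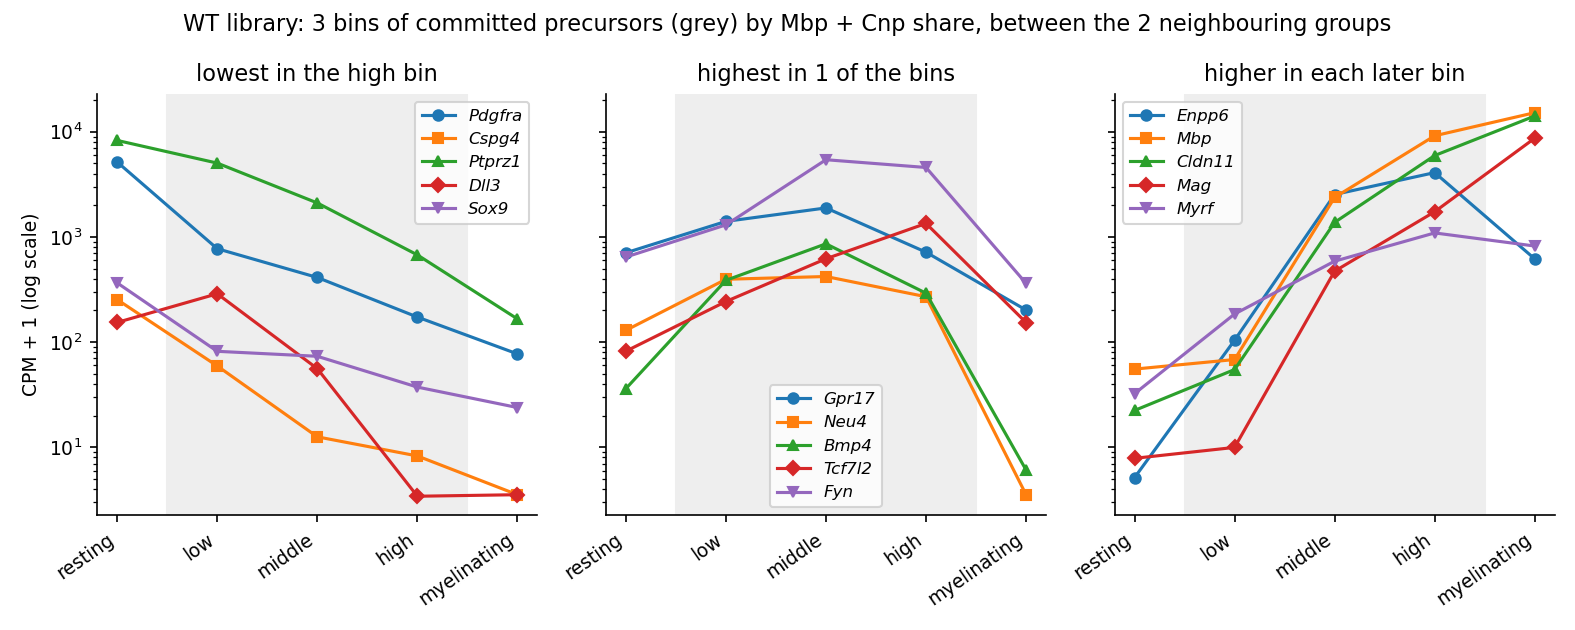
Level in CPM + 1, on a log axis, of 15 named genes in WT resting precursors, the low, middle and high bins of committed precursors by Mbp and Cnp share (53 cells each) and myelinating cells. Points are summed levels without error bars; Gpr17 and Bmp4 were highest in the middle bin at 1885 and 859 CPM, and Dll3 in the low bin at 287 CPM.

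Committed precursors were 4 of 4196 N-PRα-KO cells, 0.0953% (exact binomial 95% interval 0.0260 to 0.244), and 159 of 10069 WT cells, 1.58% (1.34 to 1.84). At a mitochondrial limit of 10% in place of 25% they made up 0.612% of the N-PRα-KO library, 3 of 490, against 0.889% of the WT library, 17 of 1912. The whole oligodendrocyte lineage was scarce in that library: 64 N-PRα-KO cells and 5172 WT cells passed the identity minimum, which myelinating cells did not have to meet. Within resting, dividing, committed and myelinating cells together, committed precursors were 4 of 65 in N-PRα-KO, 6.15% (1.70 to 15.01), and 159 of 5054 in WT, 3.15% (2.68 to 3.67). These intervals cover the counting of cells in 1 library each. The cells were enriched through CD140a, the product of the deleted gene, which can set all these shares. Genotype, library, pipeline version and any difference in animals cannot be told apart.

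The 4 N-PRα-KO cells differed widely from each other. The deepest cell, with 30479 UMIs, held 161 Enpp6, 110 Bcas1, 31 Gpr17, 7 Neu4, 426 Mbp, 29 Myrf and 4 Pdgfra UMIs. The cell with 16712 UMIs held 67 Enpp6, 61 Bcas1, 14 Gpr17, 4 Neu4, 312 Mbp, 28 Myrf and 1 Pdgfra UMI. Their Mbp and Cnp shares were 2.02%, within the range of the WT high bin, and 2.58%, above its highest cell, and both had all 4 markers.

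The other N-PRα-KO cells carried fewer of the markers. The cell with 12269 UMIs had 15 Bcas1 and 17 Gpr17 UMIs but no Enpp6, Neu4 or Pdgfra, with 6 Mbp, 4 Bmp4 and 1 Myrf UMI and a share of 0.130%, within the range of the middle bin. The cell with 4855 UMIs qualified on 3 Bcas1 UMIs alone, with no Enpp6, Neu4 or Gpr17 and 1 Pdgfra UMI, at a share of 0.0412%, within the range of the low bin. That cell held 30 Ptprz1 and 13 Lhfpl3 UMIs, 6 UMIs of Dcx, a microtubule protein of migrating neuroblasts, and the highest sum of astrocyte markers of the 4 cells, 3296 against 1436 to 1712 CPM. The microglia markers summed to 653 CPM in the 4 N-PRα-KO cells and 105 CPM in WT committed precursors, and their part was not tested. The label thus rests on several markers in 2 cells, on Bcas1 and Gpr17 in 1 cell and on Bcas1 alone in 1 cell.

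Pdgfra itself was detected in 3 of the 4 N-PRα-KO committed cells, at 93.3 CPM (34.2 to 203) summed, against 392 (354 to 433) in WT committed precursors; the selection limited it in both. The 49 N-PRα-KO resting precursors, chosen for at least 3 Pdgfra UMIs, had 3612 CPM (3401 to 3834), against 5153 (5115 to 5192) in WT. The labels do not say which part of Pdgfra is excised, so transcript counts do not check the deletion. The same 49 cells had Gpr17 at 604 CPM (519 to 698), against 705 (691 to 720) in WT resting precursors. Bcas1 stood at 285 CPM (228 to 352), against 263 in WT, and Neu4 at 299 CPM (240 to 367), against 128 (122 to 135) in WT. Enpp6 had no UMI in N-PRα-KO resting precursors, where 3 counts equal 9.95 CPM, against 4.14 CPM in WT. Of 22 committed precursor genes measured in resting cells, 4 were at least 2-fold higher and 2 lower in N-PRα-KO, beside 14.4% higher and 7.15% lower of 7384 genes tested. The 12 microglia markers summed to 1669 CPM in N-PRα-KO and 210 in WT resting precursors, and the 10 mural markers to 1028 and 85.7 CPM; their part in these values was not tested.

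**Figure D5:**
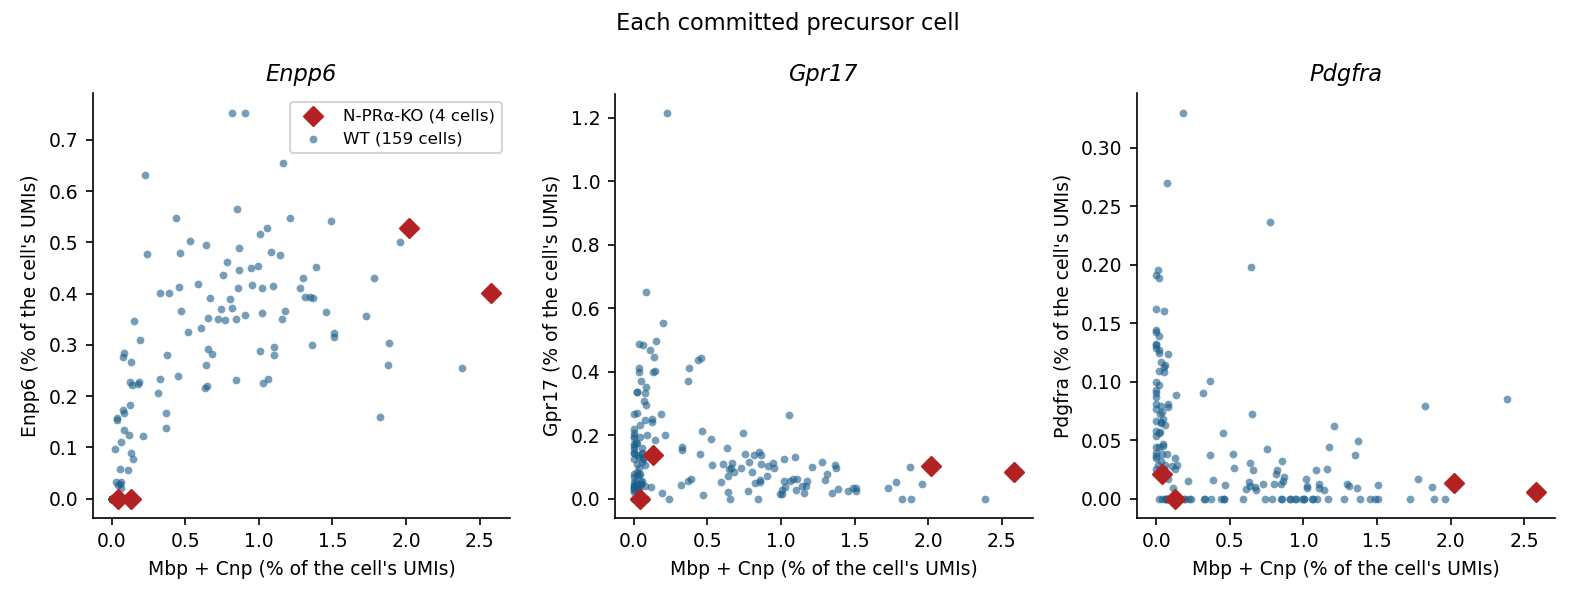
Share of Enpp6, Gpr17 and Pdgfra in the UMIs of single committed precursors of N-PRα-KO (4 diamonds) and WT (159 dots), in percent, against the share of Mbp and Cnp in percent. The N-PRα-KO cells lie at shares of 2.02, 2.58, 0.130 and 0.0412%.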

How the data were processed

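The 2 libraries were deposited as tables of counts, UMIs per gene and cell barcode. Per the file headers the authors made them with the BD Rhapsody WTA pipeline, version 1.10 for N-PRα-KO and 1.10.1 for WT and GENCODE M19 genes. No spread between libraries can be estimated, since each genotype has 1.

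Cells were filtered and chosen by the thresholds given in the report. The members, gene lists and comparisons were chosen with earlier results of these data known. UMIs were summed per cell group and divided by the group's total. CPM intervals are exact Poisson, shares are exact binomial (Clopper-Pearson) and ratio intervals are exact conditional, all at 95% and for counting error only. A count under 3 was set to 3 in a ratio. Genes with a mean of at least 20 CPM over the groups compared counted as measured, and 2-fold as different. Genes named were those of the selection, the 15 highest and 15 lowest ratios at 50 CPM or more, the 15 strongest peaks, up to 6 members per list, the 8 highest and 8 lowest between bins, and list members whose role a sentence needed. Mitochondrial, ribosomal protein, haemoglobin, predicted and sex-linked marker genes were not ranked. Some genes are not reported here. Bins of committed precursors were ordered by Mbp and Cnp, an order chosen after seeing the data in place of a planned share of 3 genes; the planned order gave 589 genes past 2-fold, against 587. Scrublet in scanpy 1.11.5 called doublets, which were kept. Thinning drew 2000 UMIs per cell. The ratio code was tested on simulated data. Alternatives were other selection limits, scalings, level minimums, thinning, and removal of called doublets. Tools were Python 3.11.15, numpy 2.4.6, scipy 1.17.1 and pandas 2.3.3.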

Additional observations from a re-analysis of the deposited data

How the results depend on the processing

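The share of committed precursors in WT cells was 1.28% with an identity minimum of 0.4% in place of 0.2%, and at a mitochondrial limit of 10% it was 0.889% (17 of 1912 cells); in N-PRα-KO cells it was then 0.612% (3 of 490). Genes past 2-fold between committed and resting precursors numbered 5997 with no minimum level and 760 at a mean of at least 50 CPM, against 1364; the alternatives test more or fewer genes. Between committed precursors and myelinating cells they numbered 4450 with no minimum and 1220 at 50 CPM, against 2229. Genes that peaked numbered 71 after thinning and 95 at 50 CPM, against 145. With no minimum level, 66.0% of genes past 2-fold over resting precursors were higher, and the median of the neuronal lineage markers turned to 0.11. A count under 3 was set to 3, which equals 3.06 CPM in committed and 0.226 CPM in resting precursors. A gene with a few counts in resting precursors and none in committed ones was therefore counted as higher. How many genes this covers was not tested. Of the list medians under all alternatives, 238 stayed within the medians of their members' interval bounds, 36 moved outside them, and 1 past 2-fold turned sign, that of the neuronal lineage markers above. A mitochondrial limit of 10% left 0 myelinating cells, so comparisons with them were not run there. No paired analysis was possible because each genotype is 1 library. Depth limits Neu4 in single cells and every value of the 4 N-PRα-KO cells.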
